A study of Mus musculus with 32 samples.

Results

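Unconventional myosins were followed in UB/OC-1, a conditionally immortal cell line from the embryonic mouse organ of Corti, where the sound-sensing hair cells form. The list held 6 genes (Myo7a, Myo6, Myo1c, Myo5a, Myo9b and Myo10), and its members on the arrays were all probe sets to which the platform annotation gives one of these symbols. A probe set is the group of short probes that reports 1 transcript. The rule found 6 probe sets for 4 of the 6 genes, among 13179 probe sets on both array designs. Myo7a and Myo1c had 1 probe set each and Myo6 had 2, all on design a, and Myo5a had 2 on design b. No probe set carried the symbol of Myo9b or Myo10, and 0 probe sets with several symbols included a member. Those 2 genes are therefore not described.

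Total RNA came from cells at 33 °C, where the labels call them undifferentiated (day 0), and from cells on later days at 39 °C, which the labels name as the differentiating condition. Experiment A covered 12 days (0 to 9, 11 and 14) and experiment B covered 4 (0, 2, 4 and 9), with 1 array of each design a day, so 16 time points gave 32 samples. All samples are the same line, and the labels name no other difference between them. Day 0 differs from later days in both temperature and time, which cannot be told apart. The line stands for 1 source of cells, and the labels do not say whether days of 1 experiment came from separate cultures, so the p-values measure the spread between these arrays. Day 0 (n = 2) was set against 3 phases at 39 °C, called early for days 1 to 3 (n = 4), middle for days 4 to 7 (n = 5) and late from day 8 on (n = 5).

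Unconventional myosins are actin motors that do not assemble into thick filaments. Each has a motor head that splits ATP on actin, a neck that binds calmodulin or related light chains, and a tail that binds cargo or membrane. In the inner ear they are known from the hair cell, whose stereocilia are bundles of actin filaments: Myo7a and Myo6 are genes of inherited deafness, and Myo1c has been studied as a motor of adaptation at the stereocilia tips.

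The deposited values are array intensities on a linear scale, of which 22.9% on design a and 33.0% on design b are negative. A value was counted as above background when it exceeded a floor, set where 75% of the negative values of a design lay closer to 0, which was 141 on design a and 198 on design b. By this measure Myo1c was above background on 16 of 16 arrays and Myo7a on 15 of 16. One Myo6 probe set was above it on 10 of 16 arrays and the other on 3 of 16, and both Myo5a probe sets on 0 of 16. Levels of different probe sets are not compared with each other here, since probes differ in how brightly they report.

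The genomic windows in front of the Myo7a and Myo1c starts are shown because these genes are read from several annotated starts, and the array probe sets do not say which start was in use. Each is the 250 bases upstream of a RefSeq transcript start (GRCm38.p6), printed 5′ to 3′ on the strand of the gene, which is the minus strand for Myo7a and the plus strand for Myo1c. The positions are chr7:98119494-98119743 (Myo7a start 1), chr7:98109249-98109498 (Myo7a start 2), chr11:75650269-75650518 (Myo1c start 1), chr11:75651900-75652149 (Myo1c start 2) and chr11:75655765-75656014 (Myo1c start 3). Capitals mark the GC box, GGGCGG or its reverse complement CCGCCC, the letters bound by Sp1-type factors.
Myo7a start 1: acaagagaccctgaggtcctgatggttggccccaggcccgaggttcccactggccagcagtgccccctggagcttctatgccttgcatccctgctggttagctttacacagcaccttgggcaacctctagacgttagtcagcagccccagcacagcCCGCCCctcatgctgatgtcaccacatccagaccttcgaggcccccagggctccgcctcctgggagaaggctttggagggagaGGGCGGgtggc
Myo7a start 2: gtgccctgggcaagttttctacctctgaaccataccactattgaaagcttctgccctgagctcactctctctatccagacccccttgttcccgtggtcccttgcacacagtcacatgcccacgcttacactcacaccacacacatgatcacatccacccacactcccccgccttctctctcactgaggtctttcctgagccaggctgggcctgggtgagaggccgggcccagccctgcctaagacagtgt
Myo1c start 1: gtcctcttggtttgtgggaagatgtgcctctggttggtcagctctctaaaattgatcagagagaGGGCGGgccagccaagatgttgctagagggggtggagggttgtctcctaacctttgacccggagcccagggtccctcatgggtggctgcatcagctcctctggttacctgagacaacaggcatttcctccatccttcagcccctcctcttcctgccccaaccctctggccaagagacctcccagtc
Myo1c start 2: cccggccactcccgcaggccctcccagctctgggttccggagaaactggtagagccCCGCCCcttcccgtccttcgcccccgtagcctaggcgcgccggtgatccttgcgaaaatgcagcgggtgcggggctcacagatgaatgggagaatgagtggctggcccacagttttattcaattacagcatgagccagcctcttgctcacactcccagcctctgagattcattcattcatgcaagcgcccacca
Myo1c start 3: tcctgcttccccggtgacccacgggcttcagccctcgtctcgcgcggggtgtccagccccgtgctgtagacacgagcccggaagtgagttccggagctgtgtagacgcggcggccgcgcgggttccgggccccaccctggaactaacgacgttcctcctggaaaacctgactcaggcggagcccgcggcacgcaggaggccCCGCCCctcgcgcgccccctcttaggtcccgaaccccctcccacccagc

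The first Myo7a window held 2 GC boxes and the second 0, while each of the 3 Myo1c windows held 1. Among all 32851 windows of this length in the RefSeq table, 32.7% held at least 1. The G and C content was 63.2% and 57.6% in the Myo7a windows and 57.6%, 60.8% and 71.2% in those of Myo1c. The E-box CAGCTG, searched on both strands and found in 13% of all windows, had 0 matches in these 5. The single Myo6 window (chr9:80164784-80165033, plus strand, not printed) held 7 GC box matches, overlapping ones counted separately, and 0 of this E-box. These are descriptions of letters and do not show binding.

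Myo7a, the motor of the Usher syndrome type I gene set, binds harmonin and Sans at the upper tip-link anchor of hair cells and also carries melanosomes in pigment epithelium. Its probe set (U81453_s_at) gave in experiment A an intensity of 300 at day 0, 381 at day 1, 252 at day 2, 251 at day 3, 180 at day 4, 298 at day 5, 238 at day 6, 269 at day 7, 227 at day 8, 238 at day 9, 449 at day 11 and 374 at day 14. In experiment B it gave 198 at day 0, 225 at day 2, 129 at day 4 and 393 at day 9. The highest values came from days 11 and 9 of experiments A and B, both late, and the lowest from day 4 of both experiments. The value for day 4 of experiment B was the only one below the floor.

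Grouped by phase, mean Myo7a intensity was 249 ± 72.1 (SD, n = 2) at day 0, 277 ± 70.3 (n = 4) early, 223 ± 68.3 (n = 5) in the middle days and 336 ± 98.7 (n = 5) late. The phases overlapped: the late values ran from 227 to 449, and day 0 of experiment A lay inside that range. On the log2 scale of floored values the order was late, early, day 0, middle, with means of 8.34, 8.08, 7.93 and 7.76. The steps between neighbours (0.26, 0.15 and 0.17) were smaller than the SDs within the phases, which ran from 0.34 to 0.45, so no neighbouring pair differed beyond its spread.

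**Figure D1:**
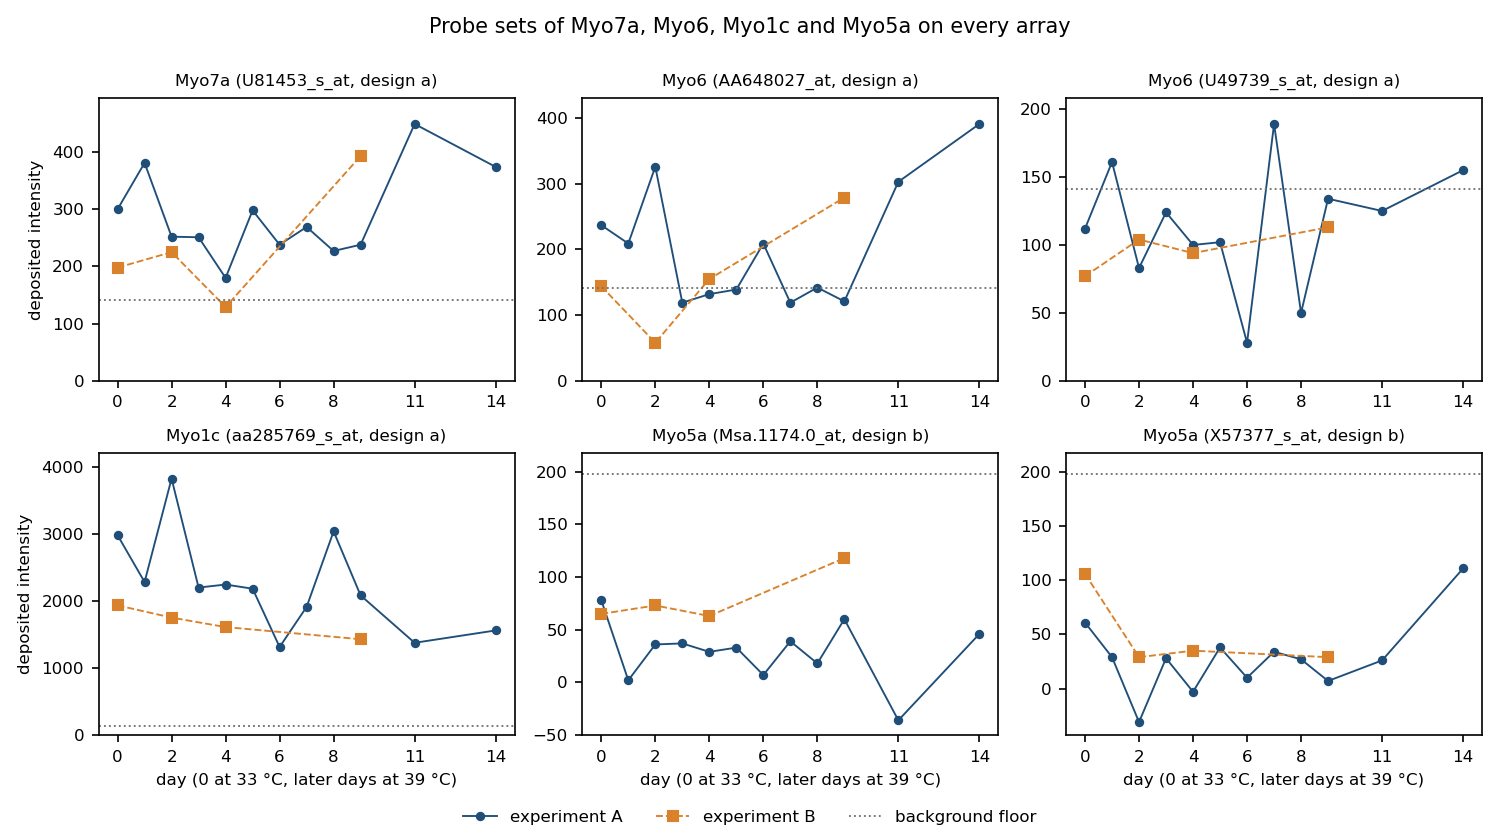
Deposited intensity (linear) of the 6 member probe sets on every array against day of culture, with experiment A as circles, experiment B as squares and the background floor as a dotted line (141 on design a, 198 on design b). Myo1c lies far above the floor on all 16 arrays, Myo7a above it on 15, and both Myo5a probe sets below it throughout.

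Late against day 0, Myo7a differed by a log2 change of 0.41 ± 0.39 (SE), or 1.33-fold, with a 95% interval of 0.754 to 2.34-fold (limma, adjusted p = 0.589). Early against day 0 the log2 change was 0.15 ± 0.40 (adjusted p = 0.99), and in the middle days it was -0.17 ± 0.39 (adjusted p = 0.89). Late against early, whose estimate compares days at 39 °C only while the day 0 arrays enter its SE, it was 0.26 ± 0.31 (limma, adjusted p = 0.864). None of these passed the threshold of 0.05 (Benjamini-Hochberg over 7726 tested probe sets), and the late interval still allows more than a doubling. The F-test over all days, which fits a smooth curve in day, gave an adjusted p of 0.428.

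The change late against day 0 kept its sign in all 27 alternative settings, with values from 0.04 to 0.71. That early against day 0 ran from -0.14 to 0.45, with a change of sign in 3 of the 27. For this gene the 2 day 0 arrays stood apart by 1.52-fold (300 in experiment A and 198 in experiment B), a wider gap than that between the late and the day 0 means.

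Myo6, the one myosin known to walk toward the minus end of actin, works in endocytosis and anchors the membrane at the base of stereocilia. Its probe set AA648027_at gave in experiment A 237 at day 0, 209 at day 1, 326 at day 2, 119 at day 3, 132 at day 4, 139 at day 5, 209 at day 6, 119 at day 7, 142 at day 8, 121 at day 9, 303 at day 11 and 391 at day 14. In experiment B it gave 144 at day 0, 58 at day 2, 155 at day 4 and 279 at day 9. The values were highest on days 14, 2 and 11 of experiment A, and on day 2 the pair of experiments differed most, with one of the highest values of the series against its lowest. Above the floor were 2 of 2 arrays at day 0, 2 of 4 early, 2 of 5 in the middle days and 4 of 5 late.

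Its phase means of intensity were 190.5 ± 65.8 (SD, n = 2) at day 0, 178 ± 117 (n = 4) early, 151 ± 35.0 (n = 5) in the middle days and 247 ± 114 (n = 5) late. The log2 changes of floored values against day 0 were 0.05 ± 0.43 (SE) early, -0.25 ± 0.42 in the middle days and 0.32 ± 0.42 late, with limma adjusted p values of 1, 0.823 and 0.698. Arrays stood at the floor on both sides, so the floor can turn the direction as well as the size: with the lower floor, at 50% of the negative values, the early change was -0.29. The sign changed in 7 of 27 alternatives early and in 2 of 27 late, so no direction is given for this probe set. The curve over days gave an unadjusted p of 0.0356 and an adjusted p of 0.178 (limma), the lowest adjusted p of the 20 member tests.

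The second Myo6 probe set (U49739_s_at) ran from 28 to 189 with a median of 108, and 3 arrays of experiment A (days 1, 7 and 14, at 161, 189 and 155) lay above the floor. The log2 changes of this probe set between phases lay between -0.02 and 0.08. Over the 16 time points the floored values of the pair of Myo6 probe sets correlated with r = -0.01, so they did not vary together; 13 of the 16 values of the second are tied at the floor, which leaves that figure little to rest on.

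Myo1c, a single-headed motor that links membrane lipids to actin and moves glucose transporter vesicles, was well above background throughout. In experiment A the intensity of its probe set (aa285769_s_at) was 2980 at day 0, 2284 at day 1, 3822 at day 2, 2201 at day 3, 2246 at day 4, 2184 at day 5, 1317 at day 6, 1913 at day 7, 3037 at day 8, 2084 at day 9, 1379 at day 11 and 1563 at day 14. In experiment B it was 1936 at day 0, 1754 at day 2, 1613 at day 4 and 1432 at day 9. Each value of experiment B was lower than the one before it, whereas experiment A moved up and down, with high values at days 0, 2 and 8 and low ones at days 6, 11 and 14.

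Mean Myo1c intensity was 2458 ± 738 (SD, n = 2) at day 0, 2515 ± 902 (n = 4) early, 1855 ± 391 (n = 5) in the middle days and 1899 ± 695 (n = 5) late. The order of the log2 means was early, day 0, middle and late (11.23, 11.23, 10.83 and 10.82). The first and the last pair in that order lay within 0.01 of each other, and the step of 0.40 between them was no larger than most of the SDs within phases (0.32 to 0.48). The phases overlapped, since the late value of 3037 at day 8 was higher than both day 0 values.

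Against day 0, the log2 change of Myo1c was 0.00 ± 0.35 (SE) early, -0.40 ± 0.34 in the middle days and -0.41 ± 0.34 late (limma, adjusted p = 1, 0.607 and 0.533). The late interval runs from 0.460 to 1.24-fold, so it allows a level below the day 0 level by more than a factor of 2 as well as a slightly higher one. Late against early the log2 change was -0.41 ± 0.27 (limma, adjusted p = 0.689). With experiment as a block, the late change had an adjusted p of 0.287. The sign late against day 0 was the same in all 27 alternatives, with values from -0.72 to -0.10.

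The experiments were set side by side on the days they share. Myo1c was lower in experiment B on 4 of 4 days, and experiment A exceeded B by 1.54-fold at day 0, 2.18-fold at day 2, 1.39-fold at day 4 and 1.46-fold at day 9. The mean log2 difference, B minus A, was -0.69 ± 0.29 (SD, n = 4 days), which is larger than any of the phase changes of this gene. Of the probe sets on design a above the floor on all 16 arrays, 27.2% (456 of 1676) were likewise lower in experiment B on all 4 days, so this pattern was common on these arrays. The ratio of the 3′ to the 5′ Gapdh control, a sign of RNA quality, also separated the experiments on design a, at 1.05 to 2.65 in A and 0.759 to 0.857 in B, and its part in this difference was not tested.

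Myo7a was lower in experiment B on 3 of the 4 days, by 1.52-fold at day 0, 1.12-fold at day 2 and 1.28-fold at day 4 (floored), and higher at day 9 (393 against 238). Its mean log2 difference was -0.10 ± 0.58 (SD, n = 4 days). For the Myo6 probe set AA648027_at, experiment B was lower on 2 of 4 days and the mean difference was -0.20 ± 0.97. For both genes the SD of this difference over the 4 days was larger than each tested change between phases. On single days the gap could be smaller, at a log2 difference of -0.16 for Myo7a at day 2 and 0.14 for Myo6 at day 4.

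Myo5a, the dilute motor that carries melanosomes and endoplasmic reticulum along actin in melanocytes and neurons, was not detectable at the sensitivity of these arrays. One probe set ran from -36 to 118 with a median of 38, and the other (X57377_s_at) from -31 to 111 with a median of 29, against the floor of 198. With a lower floor, at 50% of the negative values, 1 and 2 of 16 arrays passed. Neither was tested.

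Of the 6 probe sets, 4 passed the filter for testing (2 or more arrays above the floor), and each was tested in 5 comparisons. Early against day 0, 0 of 4 were called where 3.49% of all tested probe sets were. In the middle days 0 of 4 were called against 8.19% of all, late 0 of 4 against 10.9%, and late against early 0 of 4 against 0.984%. The curve over days called 0 of 4 against 9.73% of all. At an unadjusted p under 0.05, limma gave 1 of the 20 member tests, that of Myo6 over days, where 23% of all tested probe sets were under this level in the same test. With 4 probe sets a count of 0 lies near these shares, so it says little about the members as a group.

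**Figure D2:**
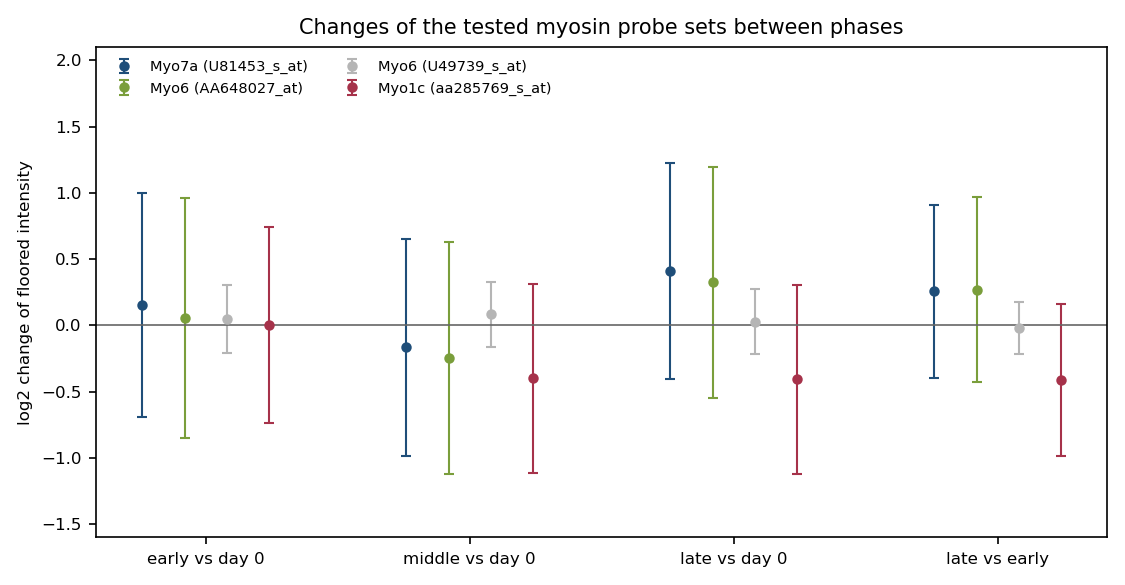
Log2 change of floored intensity of the 4 tested member probe sets in each phase comparison; points are estimates and bars 95% intervals from limma. All 16 intervals include 0, and those of U49739_s_at are short because most of its arrays are tied at the floor.

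The noise level of an array, found in the same way from its own negative values, differed between arrays. It was set against the levels of Myo7a, Myo6 (AA648027_at) and Myo1c, and not against those of the dimmer member probe sets (U49739_s_at and Myo5a). On design a it ran from 103 to 204 in experiment A and from 68 to 159.75 in experiment B, with the highest value of B at day 9. Within experiment A (n = 12), Myo7a was higher on noisier arrays, with Pearson r = 0.67 (permutation p = 0.0165, adjusted 0.0247) and Spearman rho = 0.70 (permutation p = 0.0133, adjusted 0.0199). Without days 9 and 4, the pair farthest from the median noise, r was 0.50 (permutation p = 0.139, n = 10), so the relation no longer passed 0.05 and rests on those arrays in part.

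For Myo6 (AA648027_at) r was 0.82 (permutation p = 0.00172, adjusted 0.00516) and rho 0.81 (permutation p = 0.00258, adjusted 0.00774), and r was 0.84 without days 9 and 4. For Myo1c r was -0.19 (permutation p = 0.556) and rho -0.27 (permutation p = 0.387), and r was -0.26 without them. These 3 relations were chosen after the data were seen. The noisiest arrays of experiment A include days 11 and 14, where Myo7a and Myo6 were high, and the noisiest of experiment B is day 9, where both were high as well. The part of noise in those values was not tested. Measured against the noise of its own array, Myo7a was above it on 16 of 16 arrays, by 1.32 to 2.66 times in experiment A and 1.72 to 3.31 times in experiment B.

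**Figure D3:**
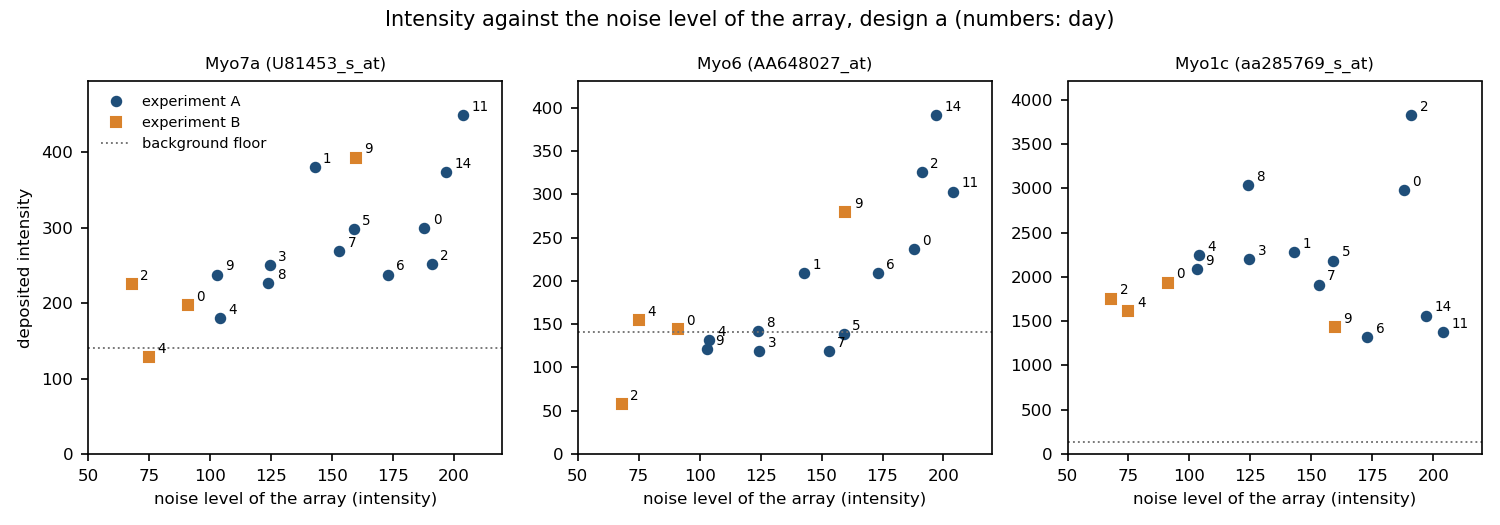
Deposited intensity of Myo7a, Myo6 (AA648027_at) and Myo1c against the noise level of the array on design a, with the day written beside each point, experiment A as circles and experiment B as squares; the dotted line is the floor of 141. In experiment A Myo7a and Myo6 are higher on noisier arrays (r = 0.67 and 0.82) and Myo1c is not (r = -0.19).

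The probe sets most like Myo7a over the 16 time points, by Pearson correlation of floored log2 values among 4946 tested probe sets with 1 symbol, were those of Has1 (r = 0.85), Prrt2 (r = 0.84), Trgv1 (r = 0.84), Mapk10 (r = 0.84) and Gfra3 (r = 0.82). Has1 makes hyaluronan, Mapk10 is a JNK kinase and Gfra3 is the receptor of artemin. The points share arrays and their noise: within experiment A these probe sets had correlations of 0.60 to 0.92 with the log2 noise of design a. Among the other myosins, Myo5b had r = 0.67 with Myo7a and ranked 158 of the 4946, with 8 of its 16 values at or below the floor. Myo6 (AA648027_at) had r = 0.65 and ranked 193, while Myo1c had r = -0.18.

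Among 19 further unconventional myosins listed, 5 had a probe set, and these were Myo1d, Myo1e, Myo1f, Myo5b and Myo9a. Of their 5 probe sets 4 were tested, and 0 were called by limma in any of the 5 comparisons, against 0.984% to 10.9% of all tested probe sets. At an unadjusted p under 0.05, limma gave 1 of these 4 myosin probe sets late and 0 in the other comparisons. The share of all at this level was counted only over days (23%). Medians of their log2 changes against day 0 were 0.16 early, 0.25 in the middle days and 0.28 late, beside 0.05, 0.08 and 0.11 over all tested probe sets. Late against early the list's median was 0.17, beside 0.05 over all.

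Myo1d, a short-tailed motor known from left-right asymmetry and membrane traffic, was below the floor at day 0 in both experiments (118 and 94). Its later values were 134, 216 and 178 on days 1 to 3 of experiment A and 179 on day 2 of experiment B, then 164 to 212 in the middle days and 176 to 275 late. Every later array was thus above both day 0 arrays. The log2 change late against day 0 was 0.75 ± 0.27 (SE), at least 1.68-fold because both day 0 arrays stood at the floor, and it missed the threshold (limma, adjusted p = 0.0839; unadjusted p = 0.0113, with 10.9% of all probe sets called in this comparison). The interval of the log2 change ran from 0.19 to 1.31.

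Myo9a, a motor with a RhoGAP domain in its tail, was above the floor on 12 of 12 arrays of experiment A (154 to 426) and on 0 of 4 of experiment B (81 to 128). This split depends on the common floor. Against the noise of its own array, Myo9a was above on 13 of 16 arrays, at 0.79 to 2.46 times the noise in experiment A and 0.80 to 1.75 times in experiment B. Experiment B was lower on 4 of 4 shared days, by a mean log2 difference of -0.70 ± 0.53 (SD, n = 4 days). On design a the noise level was lower in B than in A on 3 of those days, and the Gapdh control ratio was lower in B on all 4; their part in this difference was not tested. Myo5b was above the floor on 8 of 16 arrays, Myo1e on 3 and Myo1f on 1.

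**Figure D4:**
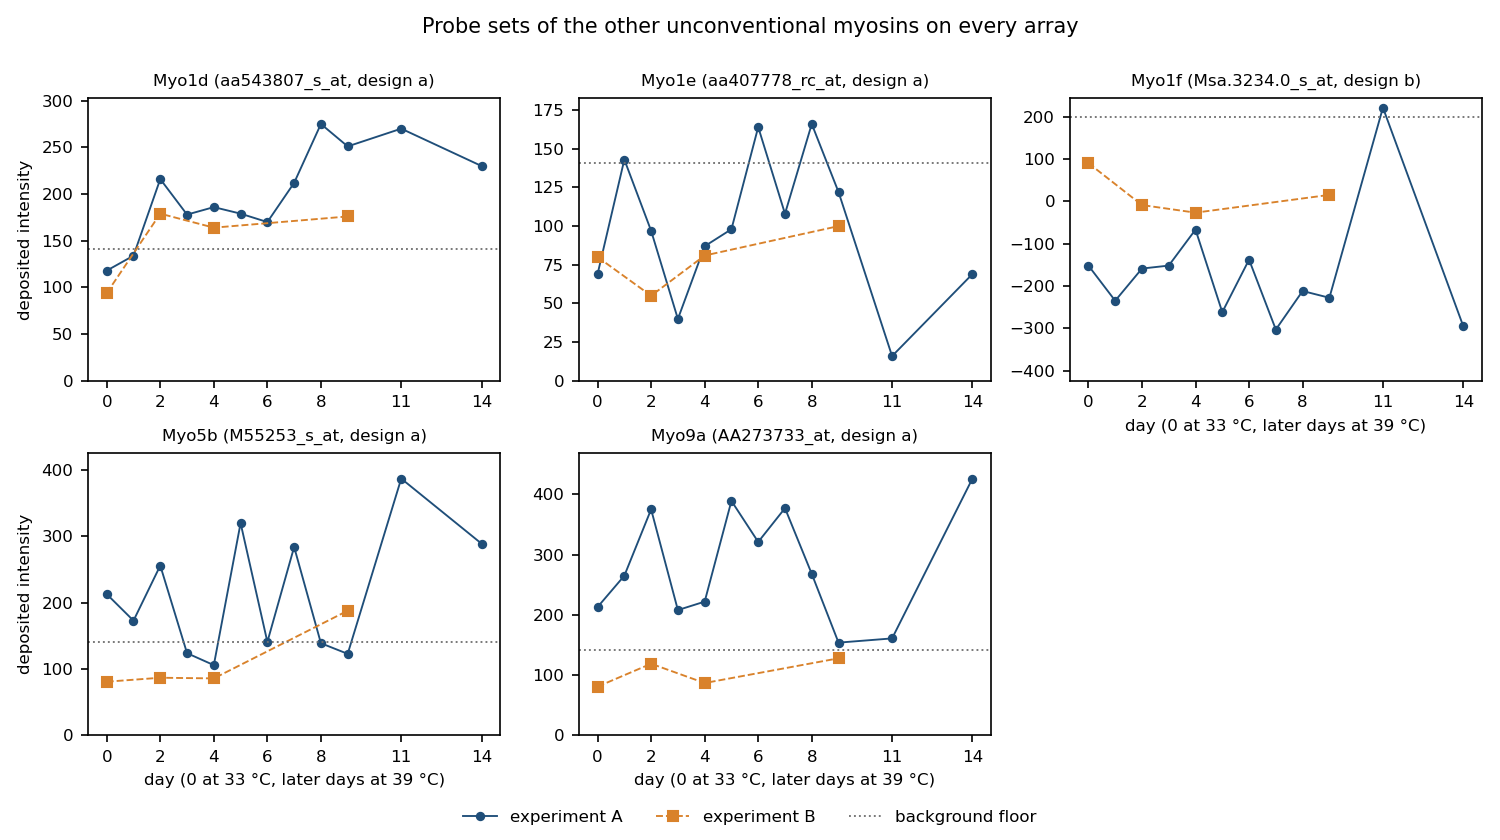
Deposited intensity (linear) of the probe sets of Myo1d, Myo1e, Myo1f, Myo5b and Myo9a on every array against day of culture, with experiment A as circles, experiment B as squares and the floor as a dotted line. Myo1d is below the floor at day 0 in both experiments and above both of those values on all later arrays, and Myo9a is above the floor on all arrays of experiment A and none of experiment B. The floor is common to all arrays of a design, and against the noise of its own array Myo9a was above on 13 of 16.

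The necks of these motors bind calmodulins and related light chains, of which 6 of 8 listed genes had a probe set and 4 probe sets were tested. None of the 4 was called early or late against early, and 1, Calml4, rose in the middle days and late. Of all tested probe sets 3.49% were called early, 8.19% in the middle days, 10.9% late, 0.984% late against early and 9.73% over days. Calml4, a calmodulin-like protein known as a light chain of the brush border motor Myo7b, gave -17 and -12 at day 0, 100 to 381 early, 319 to 471 in the middle days and 319 to 714 late. The middle and late values lay wholly above those of day 0. Its level rose at least 2.93-fold in the middle days (log2 change 1.55 ± 0.39 SE; limma, adjusted p = 0.018) and at least 3.18-fold late (1.67 ± 0.39; adjusted p = 0.00868), since both day 0 arrays stood at the floor. Values tied there show no spread, so these p values can be too small.

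The time course of Calml4 passed as well (limma F-test, adjusted p = 0.00171) and did so in all 27 alternatives. Both phase calls ended in experiment A alone (adjusted p = 0.163 and 0.0979), with the floor at the 90th percentile (0.226 and 0.111), without day 0 of experiment A (0.0899 and 0.0568) and without day 0 of experiment B (0.122 and 0.0771). Calm2, which encodes calmodulin itself, was above the floor on 16 of 16 arrays (2193 to 5867) and differed late against day 0 by -0.22 ± 0.33 (limma, adjusted p = 0.749). The list's median log2 change was -0.06 early, 0.05 in the middle days and 0.02 late.

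Conventional class II myosins, which do form filaments and drive contraction, were followed as the neighbouring family, in a list that also holds kinases and phosphatase subunits acting on them. Of its 10 myosin chains 5 genes had 7 probe sets, of which 4 were tested (1 of Myl12b and 3 of Myh9), and the regulators Rock1 and Ppp1cb added 2 tested probe sets. The regulatory light chain Myl12b rose early (log2 change 1.15 ± 0.29 SE, 2.22-fold; limma, adjusted p = 0.0333) and late (0.97 ± 0.28, 1.96-fold; adjusted p = 0.0326), and was at 0.92 ± 0.28 in the middle days (adjusted p = 0.0506). Over days Myl12b did not pass (limma F-test, adjusted p = 0.276), and it was called there in 1 of 27 alternatives. Its intensities were 2851 and 3489 at day 0, 5242 to 11641 early, 4792 to 6509 in the middle days and 4725 to 8261 late, with no overlap between day 0 and later days. The 3 Myh9 probe sets, for a heavy chain of nonmuscle myosin, were not called in any of the 5 comparisons, with log2 changes late of -0.42, -0.21 and -0.90 (limma, adjusted p = 0.411, 0.782 and 0.0664). Rock1 and Ppp1cb were not called either (-0.78 and -0.44 late; limma, adjusted p = 0.452 and 0.664). The share of all tested probe sets called was 3.49% early and 10.9% late.

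The calls of Myl12b rest on few arrays. With experiment as a block the middle change passed too (0.79; limma, adjusted p = 0.0281), and it was called in 11 of 27 alternatives. The early one ended in 6 and the late one in 8 of 27 alternatives. Without day 0 of experiment B the adjusted p was 0.288 early and 0.300 late, without day 0 of experiment A it was 0.0755 and 0.0758, and in experiment A alone 0.122 and 0.123. Leaving out day 2 or day 3 of experiment A ended the early call (0.0714 and 0.0703), and leaving out day 8, 9, 11 or 14 ended the late one (0.0622, 0.0600, 0.0503 and 0.0534). Without the filter on dim probe sets they were 0.0716 and 0.0673.

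Cargo adaptors and partners of the members, such as Dab2 for Myo6, Mlph for Myo5a and Vasp for Myo10, were measured for 23 of 31 listed genes by 32 probe sets, of which 27 were tested. None was called by limma in any of the 5 comparisons, where the share over all tested probe sets was 3.49% early, 8.19% in the middle days, 10.9% late, 0.984% late against early and 9.73% over days. At an unadjusted p under 0.05, limma gave 2, 6, 5, 3 and 7 of the 27 in these comparisons, the last beside 23% of all tested probe sets. For the other comparisons the share of all at this level was not counted. Their median log2 change was 0.00 early, 0.26 in the middle days and 0.32 late, beside 0.05, 0.08 and 0.11 over all. One Dab2 probe set was above the floor on 16 of 16 arrays (164 to 447) and another on 2 of 16 (-62 to 158). Mlph, the adaptor between Myo5a and its melanosome, was above the floor on 12 of 16 arrays (29 to 469).

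Stereocilia, Usher complex and actin bundle proteins had probe sets for 13 of 42 listed genes (22 probe sets, 19 tested), mostly for actins, capping proteins and the ezrin, radixin and moesin linkers. None was called by limma between phases. Of all tested probe sets 3.49% were called early, 8.19% in the middle days, 10.9% late and 0.984% late against early. At an unadjusted p under 0.05, limma gave 1 of the 19 early, 3 in the middle days, 4 late and 7 late against early. The shares of all tested probe sets at this unadjusted level were not counted for those comparisons. Over days limma gave 5 of the 19 at this level, beside 23% of all. The list's median log2 change was 0.10 early, -0.17 in the middle days and 0.00 late. In the test over days 1 of 19 passed, a probe set of Msn on design b (limma F-test, adjusted p = 0.0316; 9.73% of all tested probe sets passed), the moesin linker between membrane and actin. It gave 665 and 969 at day 0, 356 to 987 early, 167 to 522 in the middle days and 290 to 490 late, and its call ended in 6 of 27 alternatives. Of the other tested Msn probe sets, c78546_rc_s_at gave an adjusted p of 0.0622 over days and M86390_rc_at, above the floor on 3 of 16 arrays, 0.666.

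Markers of hair cells had 10 probe sets for 8 of 20 listed genes. Of these, 5 were never above the floor, those of Fgf8, Calb1, Gfi1, Atoh1 and one of Pvalb. The remaining 5 passed the filter for testing, which 7726 of the 13179 probe sets on both designs, controls included, passed. Atoh1, the factor that starts hair cell fate, ran from -162 to 17. Calb2 was above the floor on 16 of 16 arrays (268 to 970), and another Pvalb probe set on 12 of 16. Of the 5 tested, 0 were called by limma between phases or over days, beside 0.984% to 10.9% of all tested probe sets. At an unadjusted p under 0.05 limma gave 0 as well. Among melanocyte markers, Dct was above the floor on 16 of 16 arrays (278 to 2456), while Mitf, Kit, Oca2 and one Pmel probe set were not on any. In bulk RNA, fewer cells of a type and less RNA per cell cannot be told apart.

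Some genes of other marker lists were called. Of 11 tested probe sets of supporting cell and otic genes (20 for 15 of 24 listed genes, 8 never above the floor), 2 were called late, beside 10.9% of all. These were Cdkn1b (AA274696_s_at), a cell cycle inhibitor (log2 change 1.59 ± 0.47 SE; limma, adjusted p = 0.0337), and Gata3, a transcription factor of the otic epithelium (at least 1.59 ± 0.46; adjusted p = 0.0311), and the calls ended in 8 and 11 of 27 alternatives. Other tested Cdkn1b probe sets, Msa.326.0_at and Msa.326.0_g_at, were above the floor on 6 and 11 of 16 arrays and were not called late.

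Markers of smooth muscle and fibroblasts had 15 probe sets for 10 of 10 genes. Of these, 5 were never above the floor, those of Lum and Col1a2 and one of Col3a1. Late, 4 of 10 tested were called, beside 10.9% of all. Dcn, a matrix proteoglycan, went from 61 and 89 at day 0 to 5146 to 22560 late (log2 change at least 6.18 ± 0.89 SE; limma, adjusted p = 0.000173), and Postn, a matrix protein, by at least 2.04 ± 0.58 (adjusted p = 0.0292). Acta2, smooth muscle actin, went from 1001 and 3129 to between -140 and 151 (a log2 change of -3.16 ± 0.44 or lower, since all late arrays stood at the floor; adjusted p = 0.000124), and Tagln, an actin-binding protein, changed by -1.55 ± 0.49 (adjusted p = 0.048). The calls of Dcn and Acta2 held in all alternatives run for them, that of Postn ended in 7 and that of Tagln in 18 of 27.

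Among neuron and glia markers 1 of 5 tested was called late, beside 10.9% of all. It was Tubb3, a neuronal tubulin (-1.89 ± 0.36, limma, adjusted p = 0.00171), and its call held in all 27 alternatives. The probe sets of Map2, Snap25, Nefm and Syp were never above the floor, while those of Mbp and Gap43 were above it on 14 and 11 of 16 arrays. One Gfap probe set was above it on 14 of 16 arrays and the other on 2. Late, 0 of 14 tested muscle and 0 of 8 macrophage and blood cell probe sets were called by limma, beside the same 10.9%. Of these, 0 and 2 had an unadjusted limma p under 0.05, and the late share of all at this level was not counted. The part of such cells or states in the values of Myl12b and Calml4 was not tested.

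As a check on the arrays, array means without the top and bottom 2% of values ran from 300.4 to 300.8, and 44.3% to 50.8% of probe sets were above the floor on design a and 30.9% to 40.4% on design b. No pair of arrays held identical values. The ratio of the 3′ to the 5′ Gapdh control was 2.65 on design a and 2.56 on design b at day 6 of experiment A, against at most 1.67 and 1.59 elsewhere, and every array of experiment A lay above every array of experiment B (on design b 0.994 to 2.56 against 0.795 to 0.889). On that array Myo1c had its lowest value (1317) and Myo7a was at 238, and the part of RNA quality in them was not tested.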

How the data were processed

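Array intensities were used as the authors deposited them, in 1 value table per design, linear and already scaled; their software and background method: not given in the sources used here. Of 6584 (design a) and 6595 (design b) probe sets, 61 per design were controls and left out. Symbols are those of the platform annotation. Intensities below the floor were set to it before log2. Probe sets above it on at least 2 of 16 arrays (4294 and 3432) were fitted per design with limma 3.58.1 in R 4.3.3 (lmFit; eBayes with trend and robust): phase contrasts (12 residual degrees of freedom) and, over days, a natural spline (3 degrees of freedom, F-test), two-sided, with Benjamini-Hochberg adjustment over both designs. Named genes were all member probe sets, called probe sets of each list (at most 6) and the 5 most like Myo7a; others named for their level were chosen after seeing values. Members and lists were chosen with earlier results of these data known. Differences between experiments A and B were correlated for all 6 pairs of shared days on each design (r of 0.27 to 0.73). The samples are therefore paired by experiment, which is the block of an alternative fit. The main fit has no block. Experiment A makes up a larger part of the later phases than of day 0, so a gap between experiments enters the changes against day 0. Alternatives covered the floor, filter, scale, normalization, block and each array left out; array noise as a covariate was added after seeing the data. The code was tested on simulated data, with known changes late against day 0 in probe sets well above the floor. Of changes of log2 size 1, 17% were called, and of size 2, 83%. Among the calls 9.09% were false. The number of arrays limits the precision. RefSeq windows matched all 3 genes shown or described.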

Additional observations from a re-analysis of the deposited data

Results flagged for a closer look

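In 4 of the 12 groups of 4 or 5 arrays examined (3 phases of each tested member probe set), 1 array stood far from the others; chance alone marks about 1 group in 20, and values tied at the floor make such gaps easy to reach. For Myo6 (AA648027_at) in the middle days it was day 6 of experiment A, at 7.71 on the floored log2 scale (intensity 209) with the nearest array at 7.28. That array also had the high Gapdh control ratio, and its noise level was 173.

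For the other Myo6 probe set (U49739_s_at), the array apart was the one above the floor in its phase, with all others tied at 7.14. These were day 1 of experiment A early (7.33, intensity 161), day 7 in the middle days (7.56, intensity 189) and day 14 late (7.28, intensity 155).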

How the results depend on the processing

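The count of member probe sets called was 0 in 134 of 135 counts (27 alternatives in each of 5 comparisons). The exception was the test over days with the floor at the 90th percentile, where 1 was called: Myo6 AA648027_at, adjusted p = 0.006 (0.006 to 0.538 over its alternatives), with 4 of 16 arrays above that floor. Under this floor 6 arrays were above background for Myo7a and 0 for U49739_s_at, for which the lower floor gave 14. With experiment as a replicate block 0 members were called, and the counts over all tested probe sets were 469 early against day 0 (270 without the block), 959 in the middle days (633), 1117 late (844), 184 late against early (76) and 1241 over days (752). In experiment A alone they were 173 early, 555 late and 31 late against early. Leaving out 1 array gave 126 to 338 early, 321 to 717 in the middle days, 402 to 929 late, 30 to 118 late against early and 466 to 931 over days; the lowest came without day 0 of experiment B, or, late against early, without day 2 of experiment A. The arcsinh scale gave 175 early, noise as a covariate 451 early and 166 late against early, and no filter 40 late against early. Signs changed in 7 of 27 alternatives for Myo6 (AA648027_at) early and in 4 for Myo1c early. The cause of these shifts was not tested. Signal over background limits Myo5a and Myo6.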
